A study of Mus musculus with 12 samples.

Results

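The class I unconventional myosins were examined in pre-B cell lines that carried BCR-ABL1, a constitutively active tyrosine kinase found in Philadelphia chromosome-positive leukemia, and in control lines. The 7 genes Myo1a, Myo1c, Myo1d, Myo1e, Myo1f, Myo1g and Myo1h were taken by name from the 51826 genes of the count table. They were chosen because Myo1e had been among the most consistent differences between the conditions in these lines. For all members the difference between BCR-ABL1 and control lines is therefore given as a description without a p-value.

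Total RNA was sequenced on stranded libraries from 12 lines made from the bone marrow of 2 C57BL/6 mice. Marrow cells were grown with interleukin 7 (IL7), the growth factor of B cell precursors, for 7 days and were then transduced with a retroviral empty vector (EV) or with BCR-ABL1. After a further 48 h with IL7, the 6 BCR-ABL1 lines were deprived of IL7 for 1 week, whereas the 6 EV lines stayed in IL7 and were purified by the GFP that the vector encodes. Each mouse gave 3 lines of each condition, named 1A to 1C and 2A to 2C. Per the labels, the triplicates came from independent experiments, and ages of the mice are not used here. BCR-ABL1, IL7 withdrawal and GFP sorting divided the lines in the same way and cannot be told apart. Lines of 1 mouse share an animal, so that p-values measure the spread between these lines.

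Class I myosins are single-headed motors that bind actin through the head and membrane lipids through a basic tail domain, and they thereby tie the plasma membrane to the cortical actin network. Calmodulin sits on the neck as light chain. Short-tailed members (Myo1a, Myo1c, Myo1d, Myo1g and Myo1h) end after the lipid-binding domain, whereas the long-tailed members Myo1e and Myo1f add a proline-rich stretch and an SH3 domain, which recruit proteins of endocytosis and of Arp2/3-driven actin assembly. Myo1g and Myo1f are known mainly from blood cells, Myo1a from the intestinal brush border, and Myo1c and Myo1e from many tissues.

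All 7 members lie on annotated autosomal loci of GRCm38 and code for protein. Myo1e spans chr9:70207350-70399766 on the plus strand with 28 exons in its longest coding transcript. Myo1f spans chr17:33555707-33607764, also on the plus strand and with 28 exons. Myo1c lies at chr11:75650504-75673910 (plus strand, 32 exons), Myo1g at chr11:6506548-6520965 (minus strand, 22 exons) and Myo1a at chr10:127705170-127720940 (plus strand, 27 exons). These 5 overlapped no other annotated gene. Myo1d, at chr11:80482126-80780025 on the minus strand with 22 exons, overlaps C030013C21Rik on the same strand. Myo1h, at chr5:114289166-114365357 on the plus strand with 31 exons, overlaps Kctd10 on the opposite strand. Reads of these overlaps could have been divided between genes in the counting, and both members were at or near the lowest levels measured.

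The promoters of the long-tailed pair are shown because these genes changed places in the order of levels described further on. The 250 bases before the RefSeq start on GRCm38.p6 are chr9:70207100-70207349 for Myo1e and chr17:33555457-33555706 for Myo1f, both on the plus strand, and capitals mark CG dinucleotides.
Myo1e: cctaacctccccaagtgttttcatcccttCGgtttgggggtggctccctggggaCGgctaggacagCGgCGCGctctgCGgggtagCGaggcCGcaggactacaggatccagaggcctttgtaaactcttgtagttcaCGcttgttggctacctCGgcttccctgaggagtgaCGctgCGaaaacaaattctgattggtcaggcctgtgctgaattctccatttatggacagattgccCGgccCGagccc
Myo1f: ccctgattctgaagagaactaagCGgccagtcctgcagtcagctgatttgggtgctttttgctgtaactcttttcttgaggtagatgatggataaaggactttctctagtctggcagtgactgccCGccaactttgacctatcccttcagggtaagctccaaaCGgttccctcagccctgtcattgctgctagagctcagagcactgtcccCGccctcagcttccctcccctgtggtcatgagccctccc
The Myo1e window held 14 CG dinucleotides and 58% G and C, and 70.6% of the 32851 promoter windows of this length in RefSeq held fewer CG dinucleotides. Myo1f held 4 CG dinucleotides and 53.6% G and C, and 37.8% of windows held fewer. Across all windows the median was 6 CG dinucleotides and 52.4% G and C. On both strands, 4 letter patterns were searched, and no matches overlapped each other in these windows. The GC box GGGCGG occurred 1 time in the Myo1f window and 0 times in the Myo1e window, and 32.7% of all windows held it. The E-box CANNTG occurred 1 time in each window and in 66.2% of all windows. Neither window held TTCNNNGAA, the core pattern of STAT sites (7.02% of all windows), or the TATA pattern TATAAA (12.4% of all windows). These matches describe letters in the window and are not binding sites.

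Total counts were between 34791011 and 64547911 in EV lines and between 45230023 and 66011225 in BCR-ABL1 lines. All 12 listed B lineage markers had more than 3 counts in every line. Of these 12, Dntt, the terminal transferase of early B cell precursors, was called higher in BCR-ABL1 lines by edgeR glmTreat at 1.5-fold. Its log2 fold change was 4.30 (SE 1.25, FDR = 0.0396). Its difference in mean log2 CPM was 9.12 (SE 0.557) in mouse 1 and 3.23 (SE 1.575) in mouse 2. Its interaction, mouse 2 minus mouse 1, was -7.35 in the fit to the counts (glmQLFTest FDR = 0.00427), which need not equal the gap between these 2 differences. EV 2A and 2B held 5.275 and 18.5 CPM of Dntt, against 0.101 to 0.415 CPM in the other EV lines. Il7r, which encodes the alpha chain of the IL7 receptor, was called lower (-1.06, SE 0.13, FDR = 0.00328). The other 10 did not pass the test. Of these 10, Vpreb1 and Igll1 were higher on average with BCR-ABL1 in mouse 1 and lower in mouse 2. Their interactions were -1.96 (FDR = 4.12e-04) and -1.72 (FDR = 0.00577). EV lines 2A and 2B stood apart, with 36123 and 28517 genes detected against 20235 to 25143 in the other 10 lines. EV line 2C differed from EV 2A and 2B in its counts (chi-square per gene 134 and 245, against 6.87 to 55.2 for other pairs of 1 mouse and condition). The median gene varied more among the EV lines of mouse 2 (SD 0.325 on the log2 scale) than among the EV lines of mouse 1 (SD 0.12). For the members and the motor and cortex lists, the condition contrast was also fitted without EV 2A and 2B, as were shares of the class sum. Mouse differences were refitted with 1 line left out at a time. Markers and closest profiles are given with all lines only.

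Of the 7 members, 5 passed the filter on low counts among 15038 genes in all. Levels are given as CPM, the read counts divided by library size after TMM scaling. Myo1e was the only member called lower in BCR-ABL1 lines by glmTreat at 1.5-fold, beside 6.49% of all tested genes, and 0 members were called higher by glmTreat or DESeq2, beside 5.99%. Nothing about the members is read from these counts, since Myo1e was chosen on this comparison. The median log2 fold change of the 5 members was 0.09 and that of all tested genes was -0.02. The EV and BCR-ABL1 ranges did not overlap for 2 of the 5, Myo1e and Myo1g, and such separation was seen for 25.6% of all tested genes.

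**Figure D1:**
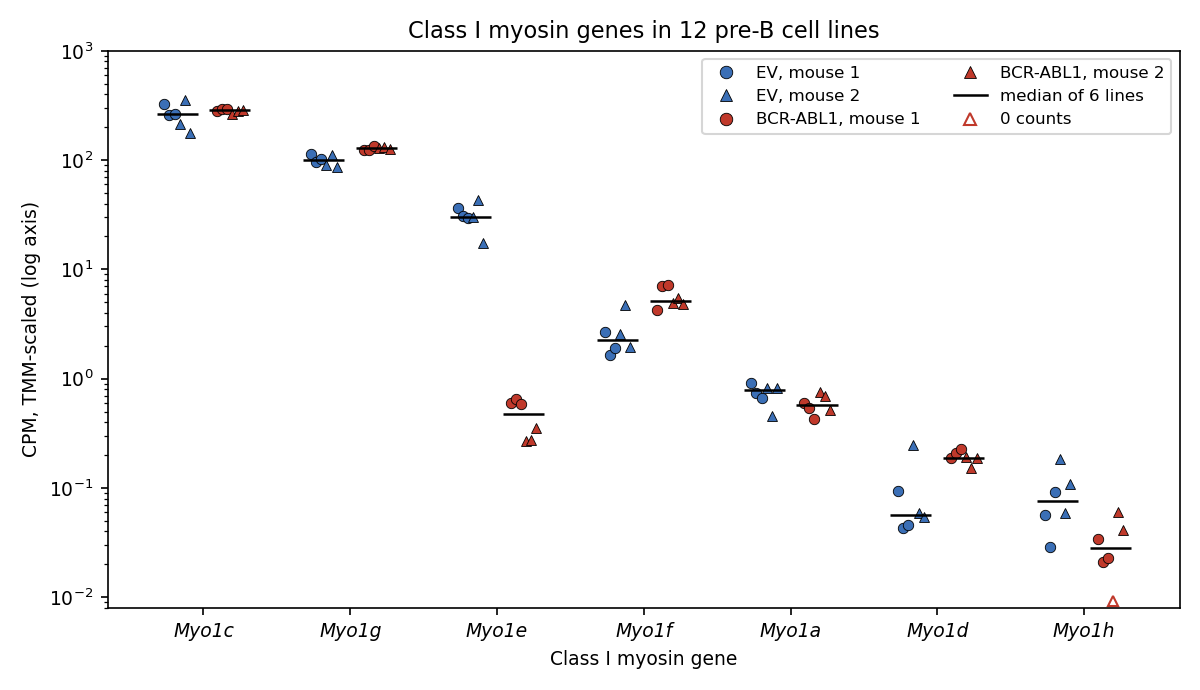
CPM (TMM-scaled, log axis) of the 7 class I myosin genes in the 12 lines, with circles for lines of mouse 1, triangles for lines of mouse 2, blue for EV, red for BCR-ABL1, bars for the median of 6 lines and an open symbol for 0 counts. Myo1e lies between 17.4 and 43.3 CPM in the controls and between 0.270 and 0.648 CPM with BCR-ABL1, while Myo1c and Myo1g stay above 85.7 CPM in all lines.

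Among the long-tailed members, Myo1e, a motor of clathrin-coated pits and of cell contacts, was far lower in BCR-ABL1 lines. In the EV lines of mouse 1 its level was 36.3, 30.8 and 29.6 CPM (1A to 1C), and in those of mouse 2 it was 30.0, 43.3 and 17.4 CPM (2A to 2C). In the BCR-ABL1 lines it was 0.593, 0.648 and 0.591 CPM for mouse 1 and 0.270, 0.274 and 0.353 CPM for mouse 2. Every EV line thus lay above every BCR-ABL1 line, with EV 2C the lowest and EV 2B the highest of the controls. The lowest EV line held 26.9 times the level of the highest BCR-ABL1 line, and the EV mean was 68.7 times the BCR-ABL1 mean (31.2 ± 8.56 against 0.455 ± 0.175 CPM, SD, n = 6 each).

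The fitted log2 fold change of Myo1e was -6.10 (SE 0.28). In raw counts the EV lines held 965 to 2180 reads and the BCR-ABL1 lines 14 to 35 reads, so that Myo1e remained above 3 counts in each of them. In these bulk libraries fewer cells with Myo1e and less Myo1e per cell cannot be told apart. Of the 976 genes called lower, 30 had a lower log2 fold change than Myo1e. Within each mouse the difference in mean log2 CPM was -5.63 (SE 0.10, mouse 1) and -6.41 (SE 0.40, mouse 2). Leaving out EV lines 2A and 2B gave a log2 fold change of -5.98, and the values under all 23 alternatives lay between -6.64 and -5.71.

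In the BCR-ABL1 lines, where Myo1e was low, the 3 lines of mouse 2 lay below the 3 lines of mouse 1 without overlap. The log2 difference of mouse 2 minus mouse 1 was -1.04 (SE 0.12) and rested on 14 to 18 reads per line in mouse 2 and 26 to 35 in mouse 1. Among EV lines it was -0.09 (SE 0.39). Neither is given with a test, since the gene was picked for its consistency over these lines. The SE of 0.12 is the spread over 3 lines of each mouse and can fall short of the counting error of so few reads.

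Myo1f, the long-tailed relative known from neutrophils and other blood cells, was measured at a lower level and with the opposite sign. In EV lines it ran from 1.65 CPM (1B) through a median of 2.26 to 4.77 CPM (2B). In BCR-ABL1 lines the lowest value was 4.24 CPM (1A), the median 5.17 and the highest 7.18 CPM (1C). The groups overlapped through a single control: EV 2B exceeded BCR-ABL1 1A, and the other 5 EV lines were at or below 2.65 CPM.

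The log2 fold change of Myo1f was 1.12 (SE 0.26), and the gene was not called at 1.5-fold. Within mouse 1 the difference was 1.55 (SE 0.32) and within mouse 2 it was 0.80 (SE 0.38). Without EV 2B the fold change was 1.38, without EV 2A and 2B it was 1.45, and in each of these 2 fits and with mouse 1 alone (1.60) Myo1f was called higher. The summed level of the 11 myeloid markers was 0.292 to 2.12 CPM in the controls against 1.78 to 4.43 CPM with BCR-ABL1, with 1 to 5 of the 11 above 3 counts per line. In BCR-ABL1 lines most of it was the Fc receptor gene Fcgr3 (1.14 to 3.68 CPM, against at most 0.337 CPM in EV lines). Of the markers that define granulocytes, Elane, S100a8 and S100a9 were at 0 in all 6 BCR-ABL1 lines and at most 0.0920 CPM in EV lines. Ly6g was at 0.0830 to 0.4998 CPM with BCR-ABL1 against 0 to 0.0920 CPM in EV lines. Lyz2 was at 0.102 to 0.385 CPM against 0 to 0.173 CPM in EV lines. Adgre1 went the other way, at 0 to 0.0304 CPM with BCR-ABL1 against 0.0461 to 0.583 CPM in EV lines. Mpo, Csf1r, Itgam and Cd14 had lower means with BCR-ABL1, with overlapping groups. The part of myeloid cells in the Myo1f level was not tested.

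Myo1g, a short-tailed motor of lymphocyte membranes, was slightly higher in BCR-ABL1 lines. Its level was 85.7 CPM (2C) to 114 CPM (1A) in EV lines, with a median of 99.1, and 123 to 134 CPM in BCR-ABL1 lines, with a median of 128. The groups did not overlap, but the lowest BCR-ABL1 line was only 1.08 times the highest EV line. The log2 fold change was 0.36 (SE 0.07), or 0.30 (SE 0.08) in mouse 1 and 0.44 (SE 0.12) in mouse 2, and it was under the 1.5-fold limit of the test.

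Myo1c, which carries membrane lipids and vesicles along cortical actin in many cell types, had the highest level of the class. It ranged from 177 CPM (2C) to 356 CPM (2B) in EV lines around a median of 263, and from 263 to 296 CPM in BCR-ABL1 lines around a median of 285. The BCR-ABL1 values fell inside the EV range. The log2 fold change was 0.09 (SE 0.15). The lines differed more in their spread than in their mean, with a coefficient of variation of 25.0% over EV lines and 3.94% over BCR-ABL1 lines. A wider spread of EV lines was not particular to Myo1c. The median SD of log2 CPM over all tested genes was 0.12 (mouse 1) and 0.325 (mouse 2) in EV lines, against 0.098 and 0.125 in BCR-ABL1 lines.

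The remaining members were hardly detected. Myo1a, the brush border motor, had 0.457 to 0.903 CPM in EV lines (median 0.782) against 0.432 to 0.751 CPM with BCR-ABL1 (median 0.568), with overlapping groups and a log2 fold change of -0.31 (SE 0.18). Myo1d did not pass the filter: it had 3 to 8 reads in EV lines and 9 to 11 reads in BCR-ABL1 lines, or 25 against 60 reads in all. Its EV lines were between 0.0433 and 0.0941 CPM except 2A, which at 0.245 CPM exceeded every BCR-ABL1 line (0.152 to 0.227 CPM). Myo1h also did not pass the filter, with 2 to 6 reads in EV lines and 0 to 4 in BCR-ABL1 lines, where 2A had 0 reads, which allows up to 3. In the fit without EV 2A and 2B Myo1d passed the filter and was called higher (log2 fold change 1.67). In the other 3 fits that kept it (without the gene filter, without EV 1A and without EV 2B) it was not called and had 1.11 to 1.27. Differences of Myo1d and Myo1h thus rest on few reads per line, and the call of Myo1d depended on which EV lines were included.

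**Figure D2:**
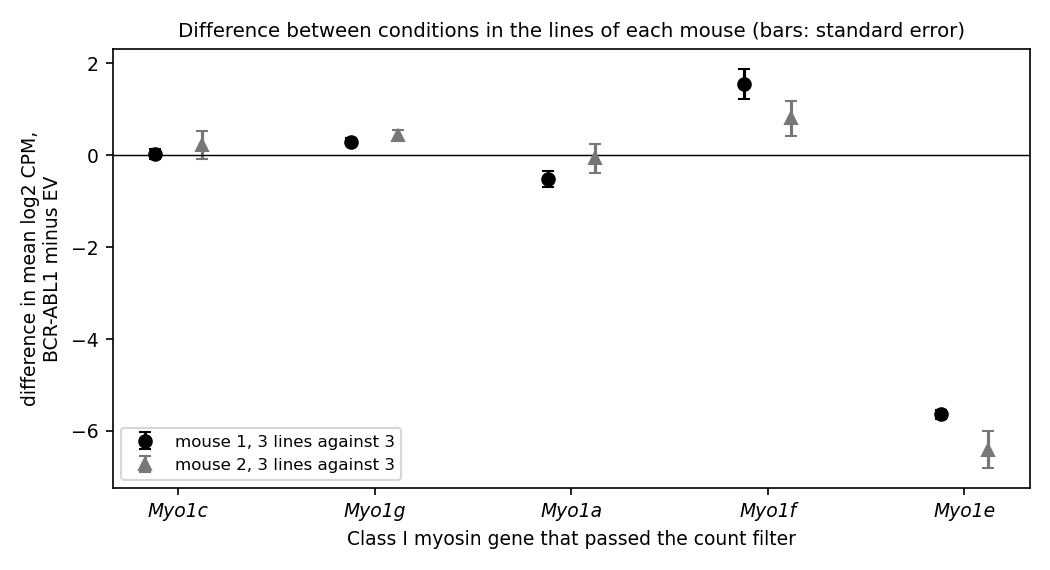
Difference in mean log2 CPM between BCR-ABL1 and EV lines (vertical axis) for the 5 class I myosin genes that passed the count filter, computed from 3 lines against 3 within mouse 1 (circles) and mouse 2 (triangles), with bars for the standard error. The 2 Myo1e points lie at -5.63 and -6.41, and those of the other 4 genes lie between -0.52 and 1.55.

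An interaction term in edgeR asked whether the difference between conditions itself differed between the mice. Beside 16.9% of all tested genes, 0 of the 4 members other than Myo1e were called by edgeR or DESeq2, and 0 had an unadjusted p under 0.05. The interaction, mouse 2 minus mouse 1, was -0.88 for Myo1f (SE 0.50, FDR = 0.243), 0.45 for Myo1a (SE 0.36, FDR = 0.50), 0.14 for Myo1g (SE 0.14, FDR = 0.601) and 0.13 for Myo1c (SE 0.32, FDR = 0.834). For Myo1e it was -0.94 (SE 0.41), again without a test. Leaving out EV 2C, the control that departed from its sister lines, moved the Myo1f interaction to -1.13 (FDR = 0.0405) and the number of genes called from 2536 to 5522.

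Between the mice within one condition, 0 of the 4 members other than Myo1e were called among EV lines, beside 24.8% of all tested genes, and 0 of 4 among BCR-ABL1 lines, beside 5.97%, by edgeR as by DESeq2. At an unadjusted p under 0.05 there were 0 in either condition. Among EV lines the difference of mouse 2 minus mouse 1 was 0.59 for Myo1f (SE 0.43, FDR = 0.233), -0.19 for Myo1c (SE 0.32, FDR = 0.566), -0.12 for Myo1g (SE 0.14, FDR = 0.449) and -0.13 for Myo1a (SE 0.30, FDR = 0.785). Myo1f passed the test without EV 2C (0.85, FDR = 0.0345), and Myo1c passed it without EV 2B (-0.54, FDR = 0.00801). Among BCR-ABL1 lines the 4 members differed by -0.29 (Myo1f) to 0.32 (Myo1a), with FDR between 0.683 and 0.975.

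Levels of different members were compared per length, as CPM per kilobase of exon (RPKM). In EV lines the order from the highest was Myo1c, Myo1g, Myo1e, Myo1f and Myo1a, and each held its place in 6 of 6 lines without overlap of neighbouring ranges. At the bottom Myo1h and Myo1d overlapped, with Myo1h above Myo1d in 3 of 6 lines. In BCR-ABL1 lines the order was Myo1c, Myo1g, Myo1f, Myo1a, Myo1e, Myo1d and Myo1h in 6 of 6 lines, also without overlap of neighbours. The lower place of Myo1e follows from the difference for which it was chosen.

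The long-tailed members exchanged their order. Myo1e was at 3.05 to 7.59 RPKM in EV lines and at 0.0473 to 0.114 RPKM in BCR-ABL1 lines, whereas Myo1f was at 0.331 to 0.959 and 0.853 to 1.44 RPKM. Per length, Myo1e was 7.79 to 16.3 times Myo1f in the EV lines. In the BCR-ABL1 lines Myo1f was 8.20 to 22.8 times Myo1e, the smallest ratio being that of line 1A and the largest that of line 2B.

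**Figure D3:**
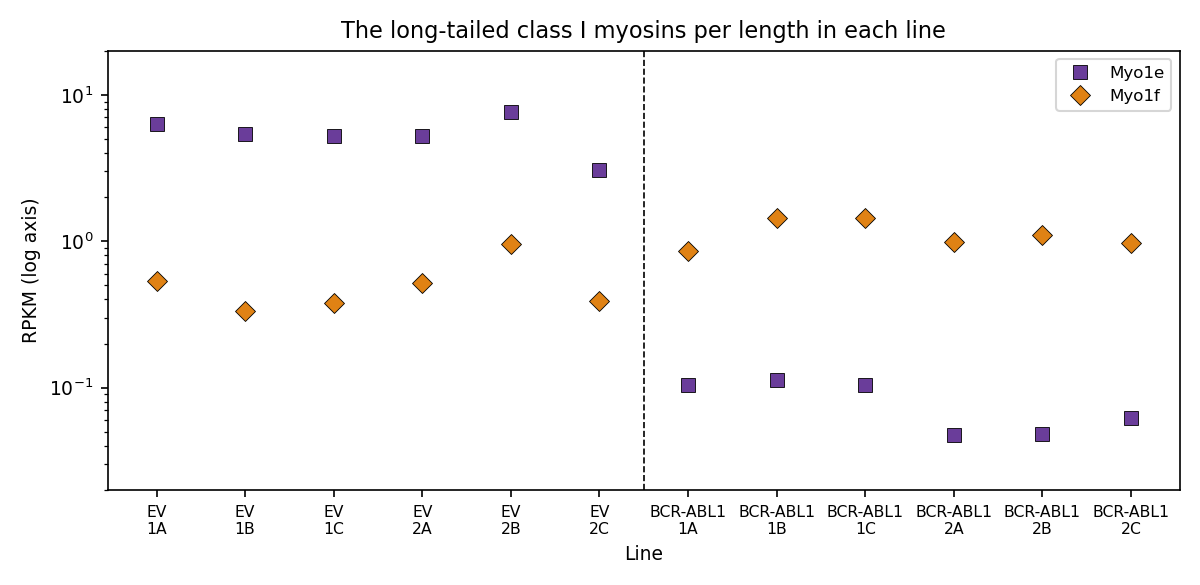
RPKM (log axis) of Myo1e (squares) and Myo1f (diamonds) in each of the 12 lines, with the 6 EV lines to the left of the dashed line and the 6 BCR-ABL1 lines to the right. Myo1e is above Myo1f in the 6 EV lines (ratio 7.79 to 16.3) and below it in the 6 BCR-ABL1 lines.

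The summed level of the 7 members was close in both conditions, at 61.1 ± 13.2 RPKM in EV lines and 62.8 ± 2.11 RPKM in BCR-ABL1 lines (SD, n = 6 each). EV lines ran from 42.9 to 78.6 RPKM and enclosed the BCR-ABL1 lines, which ran from 59.7 to 65.9 RPKM. Myo1c made up 65.9 ± 2.45% of the sum in EV lines and 68.5 ± 0.916% in BCR-ABL1 lines. Myo1g made up 24.0 ± 2.84% and 29.3 ± 0.970%. Myo1e supplied 8.88 ± 1.06% in EV lines and 0.126 ± 0.0469% in BCR-ABL1 lines, and Myo1f 0.842 ± 0.250% and 1.79 ± 0.350%. The long-tailed pair together thus accounted for 9.73 ± 1.16% and 1.92 ± 0.372% of class I transcripts per length. With EV 2A and 2B left out, the EV share of the pair was 9.08%. The lower share of the pair with BCR-ABL1 follows from the difference for which Myo1e was chosen.

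The other genes of the system were taken from 5 lists with 65 genes in all, of which 54 passed the filter. Between BCR-ABL1 and EV lines, 2 of the 54 were called higher and 1 lower, beside 5.99% and 6.49% of all tested genes, and 51 did not pass the test. Their median log2 fold change was 0.14. The conditions did not overlap for 14 of the 54, beside 25.6% of all tested genes. With mouse as replicate block 5 were called higher and 1 lower, and without EV 2C 5 were higher and 2 lower.

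Of the 17 other unconventional myosins 11 were tested, and 1 rose and 1 fell. Myo3b, a myosin of actin protrusions that carries a kinase domain, had 0 to 0.337 CPM in EV lines (median 0.0486) against 0.613 to 1.19 CPM with BCR-ABL1 (median 0.825), with a log2 fold change of 3.37 (SE 0.50, FDR = 0.00534). Its fold change was 5.51 on the log2 scale with mouse 1 alone and 2.49 with mouse 2 alone, where the call was lost (FDR = 0.0656). Myo18a, a class XVIII myosin that joins myosin II filaments, had 56.2 to 97.9 CPM in EV lines (median 80.7) against 39.0 to 47.7 CPM with BCR-ABL1 (median 43.8), and fell by 0.90 on the log2 scale (SE 0.13, FDR = 0.0246). The groups did not overlap for either gene. The Myo18a call was lost without EV 1A (FDR = 0.0759), without BCR-ABL1 2B (FDR = 0.0512), without EV 2A and 2B (FDR = 0.056), with mouse 2 alone (FDR = 0.156), without the gene filter (FDR = 0.0790) and with DESeq2 (FDR = 0.174), and it held in 17 of the 23 alternatives.

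Of myosin II, its light chains and kinases, 7 of 10 genes were tested and 0 were called in either direction by glmTreat or DESeq2 (1 at an unadjusted p under 0.05), with a median of -0.01. Of calmodulin and the myosin chaperone Unc45a, 4 of 4 were tested and 0 were called by glmTreat or DESeq2, with 1 at an unadjusted p under 0.05.

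Among the partners of the long-tailed tails (N-WASP and WASP with their binding proteins, dynamin 2, synaptojanin 1, CD2AP, CARMIL and the Arp2/3 subunits), 17 of 18 were tested and 0 were called by glmTreat or DESeq2, also at an unadjusted p under 0.05, with a median log2 fold change of 0.24. Of the 16 linkers between membrane and cortex, 15 were tested, with a median of 0.36, and Coro1a, the actin-binding coronin of leukocytes, was the only one called. It had 440 to 663 CPM in EV lines (median 496) against 872 to 1063 CPM with BCR-ABL1 (median 951), with a log2 fold change of 0.88 (SE 0.10, FDR = 0.0185). The call was lost with mouse 2 alone (0.83, FDR = 0.254) and held in the other 22 alternatives. Against no change, rather than 1.5-fold, 21 of the 54 genes of the 5 lists were higher and 6 lower, beside 22.5% and 25.9% of all tested genes.

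**Figure D4:**
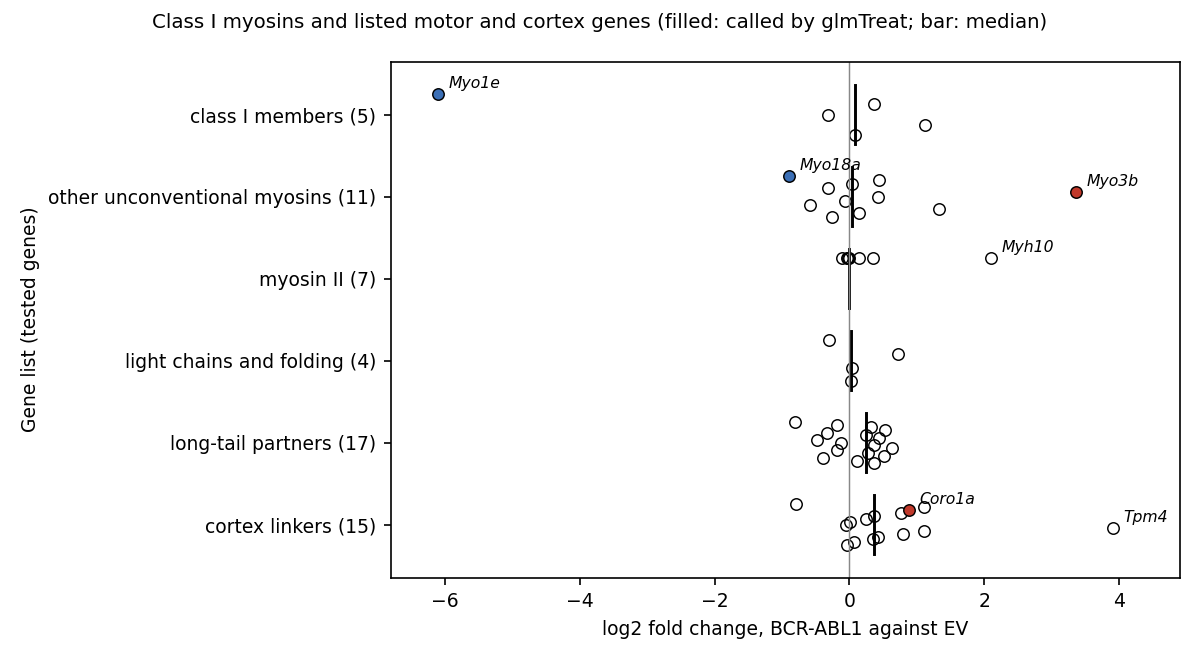
Log2 fold change of BCR-ABL1 against EV lines (horizontal axis) for the tested genes of the class and of 5 lists of motor and cortex genes (rows, with the number tested), with filled points for genes called by glmTreat and bars for list medians. Myo1e at -6.10 lies apart from the other 4 class members and from the 54 listed genes, whose called genes are Myo3b, Coro1a and Myo18a. Myo1e was chosen on this contrast, so its place apart is not read as a result.

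The difference between conditions depended on the mouse for 9 of these 54 genes, beside 16.9% of all tested genes, and for 23 of them when EV 2C was left out. Tpm4 is named after its values were seen. The actin-binding tropomyosin Tpm4 had 0.138 to 0.231 CPM in the mouse 1 controls, 56.1 to 65.6 CPM in the mouse 2 controls and 409 to 564 CPM with BCR-ABL1 (interaction -8.18, SE 0.21, FDR = 2.29e-09). Between the mice, EV lines differed for Tpm4 (FDR = 1.42e-10). Of the 54 genes, 14 were called between the mice among EV lines, beside 24.8% of all tested genes, and 3 among BCR-ABL1 lines, beside 5.97%.

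Genes with a profile over the 12 lines most like that of each member were found by the root mean square difference of log2 CPM after centring, as a description. Closest to Myo1e among 11053 genes were Rtn4r (0.49), Trac (0.61), D630033O11Rik (0.75), Enpp1 (0.79) and Klhl32 (0.81), where the median gene was at 3.07. Rtn4r, the Nogo receptor, had 1.93 to 11.0 CPM in the controls against 0 to 0.188 CPM with BCR-ABL1. Trac, the constant segment of the T cell receptor alpha chain, had 9.99 to 41.1 against 0.213 to 1.34 CPM. Enpp1, an ectoenzyme that makes pyrophosphate, had 1.63 to 8.34 against 0.0193 to 0.0848 CPM. Of the CD3 chains of the T cell receptor, Cd3d was called lower in BCR-ABL1 lines (0.234 to 0.644 CPM in EV against 0.0304 to 0.116 CPM, log2 fold change -2.67, SE 0.28, FDR = 0.000511). Cd3g was at 0.113 to 0.215 CPM in EV lines against 0 to 0.0170 CPM, and Cd3e at 0 to 0.123 CPM in EV lines against 0 in all 6 BCR-ABL1 lines, and neither passed the filter. The 9 T and NK markers summed to 0.606 to 2.24 CPM in the controls against 0.436 to 3.76 CPM with BCR-ABL1. The NK marker Klrb1c alone was at 0.0289 to 1.07 CPM in the controls against 0.353 to 3.68 CPM with BCR-ABL1. Its difference in mean log2 CPM was 4.265 (SE 0.596) in mouse 1 and -0.94 (SE 0.281) in mouse 2. The part of T and NK cells in the Myo1e level was not tested.

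**Figure D5:**
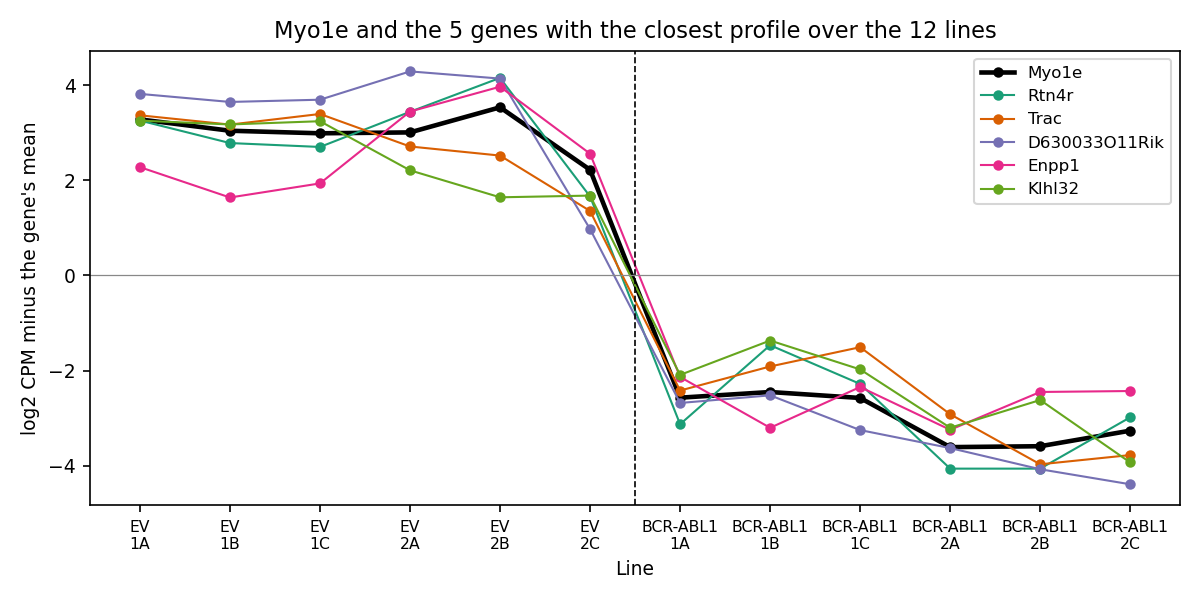
Log2 CPM minus the mean of the gene over the 12 lines (vertical axis) for Myo1e (thick line) and the 5 genes of closest profile, in the 6 EV lines and, right of the dashed line, the 6 BCR-ABL1 lines, where connecting lines only join the values of 1 gene. All 6 genes are above their mean in the EV lines and below it in the BCR-ABL1 lines, and the root mean square distance to Myo1e is 0.49 for Rtn4r and 0.81 for Klhl32.

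For the other members these distances were smaller, as was that of the median gene. Myo1f was nearest to Cat (0.23), which encodes catalase, to the riboflavin kinase Rfk (0.24) and to the lymphocyte adaptor Themis2 (0.25), with 0.77 for the median gene. Cat had 59.8 to 131 CPM in the controls against 141 to 235 CPM with BCR-ABL1. Myo1g was nearest to Myh9 (0.09), the heavy chain of non-muscle myosin II, to the Arp2/3 subunit Actr3 (0.09) and to Uggt1 (0.10), with 0.36 for the median gene. Myo1c was nearest to Apobec1, Cmtm6 and the kinase Stk10 (0.11 to 0.12, median gene 0.39), and Myo1a to Fdxr, 1700030K09Rik and Zfp568 (0.19 to 0.21, median gene 0.42). Myh9 had 394 to 559 CPM in the controls against 556 to 640 CPM with BCR-ABL1, and Actr3 had 380 to 412 against 502 to 533 CPM.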

How the data were processed

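Stranded total RNA libraries (TruSeq Gold) of 12 lines were sequenced, and the authors deposited whole-number counts per gene for each line, without normalization or pooling. The submitters' processing notes name FastQC 0.11.5, Trimmomatic 0.36, TopHat2 2.1.1, Bowtie2 2.3.2, featureCounts 1.5.3, edgeR 3.18.1 and GRCm38. The strand setting and annotation release are not given in the sources used here. Symbols were taken from GENCODE M21 for 51633 of 51826 genes. Counts were analysed in R 4.3.3 with edgeR 4.0.16: filterByExpr (15038 genes), TMM, quasi-likelihood fit and glmTreat against a 1.5-fold change, two-sided, with Benjamini-Hochberg adjustment (FDR) at 0.05. The study used glmTreat on a likelihood ratio fit, which was run as an alternative, as was DESeq2 1.42.0. Mouse differences and the interaction used glmQLFTest on 4 groups of 3 lines. Standard errors (SE) are those of the difference in mean log2 CPM over lines. This holds also where an SE stands beside a fitted fold change or interaction, which can differ from that difference at low counts or wide spread. Log2 CPM used a prior count of 2, RPKM the union of exons, and 3 counts per line were taken as the floor. The fits were tested on simulated data.

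Named were the members, at most 4 called genes of each list, the 5 genes closest to Myo1e and the 3 closest to each other tested member (mean log2 CPM of at least 1), and genes that overlap members. Some genes of this rule are not reported here. The members and lists were chosen with earlier results of these data known. Lines with the same first digit come from the same mouse by the labels. Deviations from condition means correlated at 0.0853 to 0.240 across conditions within a mouse and at -0.203 to -0.0636 between mice, and once mouse means were removed at -0.109 to 0.0856 for lines that share a letter. Mouse therefore pairs the lines and the letter does not. The main condition contrast had no mouse term, so its FDR and SE treat the lines of the conditions as unpaired. Mouse as replicate block was run as an alternative. No 2 lines of a condition agreed within sampling noise, so none was counted as a repeat.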

Additional observations from a re-analysis of the deposited data

Results flagged for a closer look

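In groups of 6 lines, 3 of 22 groups examined held a value set far from the others. For normally distributed values about 1 in 20 groups would. Levels from few reads, as for Myo1d and Myo3b, need not follow that rate, so the count is not compared with it. Myo1d was at 0.245 CPM in EV 2A (8 reads), with the next EV line at 0.0941 CPM. Myo1f was at 4.77 CPM in EV 2B, with the next EV line at 2.65 CPM. Myo3b was at 0.337 CPM in EV 2A, with the next EV line at 0.108 CPM. EV 2A and 2B are the lines with the most detected genes, and the part of that in these values was not tested.

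The difference between BCR-ABL1 and EV lines differed between the mice, by the interaction test, for 9 of the 54 partner genes and for 0 of the 4 members tested. Of all tested genes, 16.9% were called by this test, so the count of partner genes is not read as a result about them. Not all of the 9 are named here. The interaction on the log2 scale, mouse 2 minus mouse 1, was -8.59 for Myo7a (FDR = 0.00128), -8.18 for Tpm4, -5.40 for Myh10 (FDR = 2.65e-04) and 4.79 for Myo10 (FDR = 0.0163). Smaller values were found for Arpc5 (-0.80, FDR = 0.0203), Arpc3 (-0.64, FDR = 0.0102) and Arpc4 (-0.57, FDR = 0.00705), which are Arp2/3 subunits, and for the myosin II light chain Myl12a (-0.31, FDR = 0.0359). Each mouse is 1 animal, so these values compare lines of 2 animals. The interaction of Myo10 rests on few reads, since no line held more than 27 counts of this gene. With BCR-ABL1, the mouse 1 lines held only 0.0170 to 0.0227 CPM of Myo10.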

How the results depend on the processing

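No called result changed direction under the alternatives run, whereas uncalled mouse differences near 0 (Myo1a and Myo1e within EV, Myo1c in the interaction, Myo1g within BCR-ABL1) took either sign. Without the gene filter the median log2 fold change of all genes was -0.837. For the condition contrast, 3389 genes were higher and 3897 lower against no change, 2512 and 1877 with mouse 1 alone, 1438 were higher without EV 2A and 2B (chosen after seeing the data), 408 were lower with mouse 2 alone, and leaving out 1 line gave 807 to 1353 higher and 802 to 1434 lower, the most in each case without EV 2C. Members called higher numbered 2 against no change (Myo1f and Myo1g), 1 with mouse 1 alone, 2 without EV 2A and 2B (Myo1f and Myo1d) and 0 to 1 with 1 line left out (Myo1f, without EV 2B). Partner genes called higher numbered 1 with a CPM of at least 1 in 6 lines, 21 against no change, 5 with mouse as replicate block, 11 with mouse 1 alone, 7 without EV 2A and 2B and 2 to 5 with 1 line left out; called lower were 0 without the gene filter, with DESeq2 and without EV 2A and 2B, 6 against no change, 3 with mouse 1 alone and 0 to 2 with 1 line left out. The mouse block changed no call of a member or of Myo3b, Myo18a or Coro1a, and calls of other named genes were not followed singly. For the interaction, blocking by line number and letter gave 1648 genes, DESeq2 gave 14 partner genes, and leaving out 1 line gave 1892 to 5522 genes, 7 to 23 partner genes and 0 to 1 members, the highest without EV 2C. Within EV, leaving out 1 line gave 2761 to 7012 genes, 7 to 26 partner genes and 0 to 1 members, the most genes again without EV 2C. Within BCR-ABL1, no gene filter gave 1803 genes, DESeq2 gave 1445 genes and 6 partner genes, the CPM filter gave 1 partner gene, and leaving out 1 line gave 539 to 2475 genes and 1 to 7 partner genes, with the lowest counts when a BCR-ABL1 line was left out and the highest without EV 2C. With the longest transcript as length the class sum was 85.1 RPKM in EV and 88.8 RPKM in BCR-ABL1 lines, Myo1e made up 7.74% and the long-tailed pair 8.52% of it in EV lines. The cause of these shifts was not tested. Fits with fewer lines also have fewer residual degrees of freedom, and the part of that in the shifts was not tested. Depth limits Myo1d and Myo1h.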

Other observations

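Around Myo1e, 12 protein-coding genes lay within 500 kb, and 8 of them passed the filter. They were examined after the values of Myo1e were seen. Only Gm10642 was called lower in BCR-ABL1 lines (log2 fold change -2.21, SE 0.42, FDR = 0.00830), beside 6.49% of all tested genes. Gm10642 overlaps the start of Mindy2 on the opposite strand, which was not called (log2 fold change -0.83, SE 0.17, FDR = 0.114), and without a known strand setting of the counting their reads cannot be told apart. The nearest tested gene downstream, the mitotic cyclin gene Ccnb2, had a log2 fold change of 0.34 (SE 0.13), and Rnf111 beyond it had -0.39 (SE 0.12), neither of which was called. Gcnt3 and Fam81a on the upstream side did not pass the filter.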
